A study of Mus musculus with 2 samples.

Results

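The squares described here are the 414 places in a section of mouse intestine labelled Dpf2 knockout where 6 genes of absorptive enterocytes took the largest share of the counts. The section's barcoded capture spots were summed into squares with a side of 10 position units, and 8285 squares with 1000 or more counts were kept. The share of Fabp1, Lct, Treh, Slc5a1, Anpep and Slc15a1 among all counts of a square is called its score, and the 5% of squares with the highest score were taken as enterocyte squares. The other 7871 squares are called the remaining squares. Both sections of the series together hold 13202 kept squares. A square covers a small region and can hold cells of several types, so a share is a share of counts and not of cells.

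The series holds 1 intestinal section from mice labelled DPF2 KO and 1 from mice labelled WT, both given 10 Gy of X-rays. No unirradiated section and no second section of either genotype was analysed here, so irradiation is common to both groups and there are no replicates. Neither the age of the mice nor the time between irradiation and sampling is stated in the labels, nor are the gut segment, the deleted part of Dpf2 and the cells in which it was deleted. The product of Dpf2 is part of the BAF chromatin remodeller, also called SWI/SNF. Its level did not go with the label: the enterocyte squares held 163 counts of Dpf2, or 27.6 counts per 1000000 counts (CPM), and squares chosen in the same way in the section labelled WT held 39 counts, or 22.7 CPM. Because the deleted part is not given, counts of the whole gene do not check the deletion, and the section is called the section labelled knockout throughout.

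Absorptive enterocytes are the commonest cell of the small-intestinal villus. They are born from crypt progenitors, move up the villus and are shed at its tip, and they change their set of genes on the way. Their apical brush border carries enzymes that finish the digestion of sugars and peptides and transporters that take up the products, while fat is bound inside the cell, re-esterified and exported as chylomicrons. Nuclear factors of the HNF1, HNF4 and GATA families are known to act at the promoters of many of these genes.

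The stretches of 250 bases upstream of the annotated start are shown for 6 genes, because motif letters of those 3 families were found in them: 3 of the rule's genes and 3 of the genes that follow as highest in the enterocyte squares. They come from RefSeq's annotation of build GRCm38.p6 and are printed 5′ to 3′ on the gene's strand. Capitals mark the HNF1 half-site GTTAAT, the GATA site AGATAA or the HNF4 core CAAAGTC on either strand.
Fabp1, chr6:71199629-71199878, plus strand, HNF1 half-site at -107: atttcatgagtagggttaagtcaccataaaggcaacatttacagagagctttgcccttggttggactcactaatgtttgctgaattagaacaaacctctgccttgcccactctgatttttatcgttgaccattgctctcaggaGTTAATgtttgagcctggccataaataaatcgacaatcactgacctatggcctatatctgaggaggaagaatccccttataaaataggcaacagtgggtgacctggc
Lct, chr1:128328319-128328568, minus strand, GATA sites at -101 and -90: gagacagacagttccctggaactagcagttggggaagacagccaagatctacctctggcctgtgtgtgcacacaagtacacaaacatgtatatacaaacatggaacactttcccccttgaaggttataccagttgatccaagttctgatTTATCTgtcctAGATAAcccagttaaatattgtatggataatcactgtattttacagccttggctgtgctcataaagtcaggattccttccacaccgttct
Treh, chr9:44672983-44673232, plus strand, HNF4 cores at -227 and -69: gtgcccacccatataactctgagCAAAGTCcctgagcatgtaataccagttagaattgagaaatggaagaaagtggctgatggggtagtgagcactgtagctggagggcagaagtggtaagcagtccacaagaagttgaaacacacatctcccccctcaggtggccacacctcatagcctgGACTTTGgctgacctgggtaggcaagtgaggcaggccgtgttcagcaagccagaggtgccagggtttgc
Otop3, chr11:115334481-115334730, plus strand, HNF1 half-site at -41: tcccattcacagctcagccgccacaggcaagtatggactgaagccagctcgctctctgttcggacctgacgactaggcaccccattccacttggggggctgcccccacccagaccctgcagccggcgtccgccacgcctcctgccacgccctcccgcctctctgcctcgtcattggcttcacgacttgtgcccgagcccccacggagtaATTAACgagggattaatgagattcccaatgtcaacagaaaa
Cyp2c66, chr19:39113648-39113897, plus strand, HNF4 core at -104: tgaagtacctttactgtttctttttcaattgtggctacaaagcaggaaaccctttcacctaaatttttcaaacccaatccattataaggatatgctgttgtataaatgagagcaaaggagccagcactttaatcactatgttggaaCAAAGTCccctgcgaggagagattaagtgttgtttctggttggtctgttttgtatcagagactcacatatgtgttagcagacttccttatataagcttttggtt
Hsd17b13, chr5:103977389-103977638, minus strand, GATA site at -135 and HNF4 core at -17: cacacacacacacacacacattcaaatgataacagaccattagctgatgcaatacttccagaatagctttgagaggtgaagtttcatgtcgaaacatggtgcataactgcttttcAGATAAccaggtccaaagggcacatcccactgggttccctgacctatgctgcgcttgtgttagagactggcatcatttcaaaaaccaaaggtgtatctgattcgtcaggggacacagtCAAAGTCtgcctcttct
Positions give the first base of the match in the printed direction, with -1 the base just before the start.

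Of the 20 genes named as highest in the enterocyte squares, 18 had a promoter in the RefSeq table. Within 300 bases, from 250 before the start to 50 after it, the HNF1 half-site occurred in 5 of these 18 promoters (27.8%), the GATA site in 6 (33.3%) and the HNF4 core in 3 (16.7%). Among all 27025 promoters of the table the shares were 7.20%, 11.4% and 4.36% in the same order. At least one of the 3 motifs was found in 11 of the 18 promoters (61.1%), in 3 of the 6 rule genes and in 1 of 10 promoters of the lowest genes, against 20.8% of all promoters. A match is a description of letters, and no binding of these factors was measured.

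The enterocyte squares lay in thin arcs that followed the banding of the section. The map of squares shows concentric bands, with most enterocyte squares on an arc along the outer edge and a second arc further in. When the squares were split into 4 rings of about equal size by distance from the centre of the section, the rings held 1, 105, 44 and 264 enterocyte squares from the innermost to the outermost, which is 0.0483%, 5.07%, 2.12% and 12.7% of the squares of each ring. A split by position into 4 parts of about equal size gave 94 of 2139, 110 of 2082, 80 of 2064 and 130 of 2000 squares. The enterocyte squares were therefore spread over every part of the section but concentrated in its outermost ring.

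**Figure D1:**
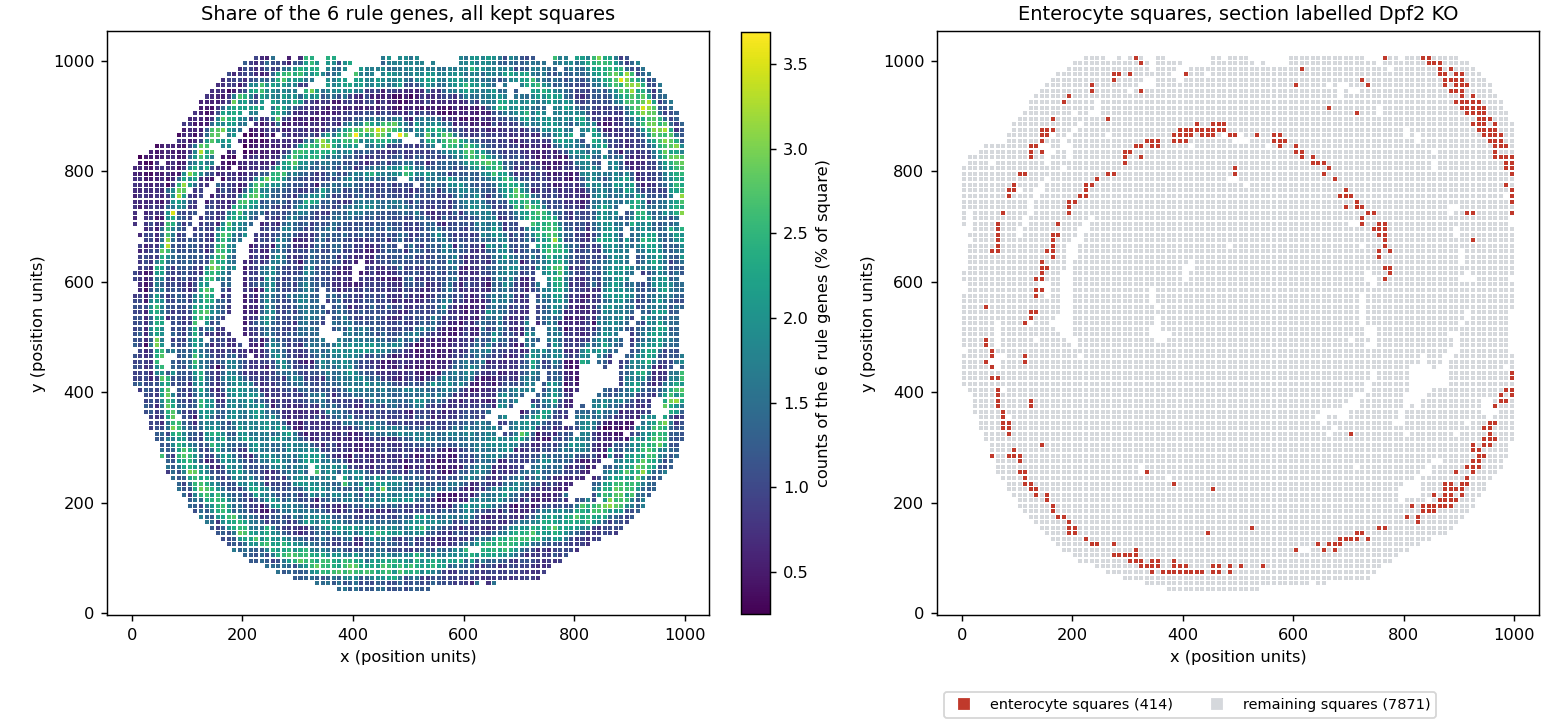
Map of the section labelled Dpf2 KO in position units, whose length the labels do not state. Left, each kept square is coloured by the share of the 6 rule genes in its counts (%). Right, the 414 enterocyte squares are red and the 7871 remaining squares grey, and the red squares form an outer and an inner arc.

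Neighbouring squares tended to be chosen together. Among the 8 neighbours of an enterocyte square, 38.8% were enterocyte squares too, while 5.0% of all squares were. The squares formed 78 patches of touching squares, of which 34 were single squares, and 12 patches of 10 or more held 261 of the 414. The largest 3 patches, of 69, 49 and 28 squares, lay in the outermost ring.

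The enterocyte squares held 5910669 counts, or 6.59% of the section's 89754886, and the remaining squares held 83800317. The median count per square was 13465 in enterocyte squares (range 1064 to 41073) and 10060 in the remaining squares (range 1003 to 33052). A count of 0 therefore allows up to 0.508 CPM in the enterocyte squares and 0.0358 CPM in the remaining squares, at 3 counts. Over all 8285 squares the score had a Pearson correlation of 0.21 with the counts per square, a description over squares that share 1 library. In a bulk measure of this kind, more enterocytes in a square and more RNA per enterocyte cannot be told apart.

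The score itself chose the squares, so its values are given as a description and support nothing. The median score was 2.67% in enterocyte squares and 1.25% in the remaining squares, and the lowest score of any square was 0.249%. No gap separated the groups: the last square inside the rule had 2.484% and the first outside 2.482%. Within 0.1 percentage points of that threshold lay 117 enterocyte squares and 140 remaining squares. For a square of median depth, the exact (Clopper-Pearson) 95% interval at the threshold ran from 2.22% to 2.76%, so many squares near the threshold could fall on either side of it by counting error alone.

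Fabp1, the liver-type fatty acid binding protein of the cytosol, weighed most in the choice, with 41.0% of the rule's counts in enterocyte squares and 34.7% in the remaining squares. Its level in the 4 position parts was 11650, 11784, 9986 and 11194 CPM in enterocyte squares, against 4840, 4608, 4102 and 5125 CPM in the remaining squares. The squares were chosen on this gene, so the gap between the groups was set by the rule. Single squares overlapped: enterocyte squares ran from 2430 to 21674 CPM (median 10736) and remaining squares from 0 to 16298 CPM (median 4158). Over all squares the levels were 11242 and 4687 CPM, a log2 ratio of 1.26 (95% counting interval 1.25 to 1.27, parts 1.13 to 1.35).

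The other rule genes differed less. Slc5a1, the sodium-dependent glucose transporter of the brush border, stood at 6660, 7062, 7348 and 6947 CPM in the 4 parts of the enterocyte squares, against 3725, 3151, 3418 and 3629 CPM in the remaining squares, a log2 ratio of 1.0. Lct, which encodes lactase, stood at 1745, 1918, 2218 and 2002 CPM, against 1094, 847, 1047 and 1110 CPM in the remaining squares, a log2 ratio of 0.93. The rule set these gaps too. The log2 ratio was 0.83 for Anpep (aminopeptidase N), 0.75 for Treh (trehalase) and 0.53 for Slc15a1 (the peptide transporter PEPT1). Slc15a1 stood at 1912 CPM in enterocyte squares and 1327 CPM in the remaining squares, the smallest ratio of the 6. By ratio the 6 genes ranked 59 (Fabp1), 142 (Slc5a1), 186 (Lct), 268 (Anpep), 338 (Treh) and 722 (Slc15a1) among 13152 genes with 200 or more counts, so the rule's own genes were not the ones that stood furthest apart.

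The rule's genes did not vary together within the enterocyte squares. Across the 414 squares Fabp1 had Pearson correlations of -0.56 with Lct, -0.38 with Treh, -0.56 with Slc5a1, -0.47 with Anpep and -0.62 with Slc15a1, whereas the pairs without Fabp1 had correlations between 0.16 and 0.51. These squares were chosen on the sum of the 6 genes and all values are shares of 1 total, both of which shape such coefficients, and they are given as a description.

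To measure the 6 genes on counts the choice had not used, the squares were chosen on odd-numbered barcodes and measured on even-numbered barcodes. The 6 genes then took 2.62% of the counts in chosen squares and 1.36% in the remaining squares. The log2 ratio was 1.16 for Fabp1, 0.93 for Slc5a1, 0.87 for Lct, 0.80 for Anpep, 0.74 for Treh and 0.50 for Slc15a1. Of the 414 enterocyte squares, 316 (76.3%) were chosen again by the odd-numbered barcodes.

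Of 13152 genes measured with 200 or more counts, 142 (1.08%) stood at least 2-fold higher in enterocyte squares than in the remaining squares, and 2301 (17.5%) were at least 2-fold lower. A ratio above 1 was found for 27% of the genes, and the median log2 ratio was -0.32, so a ratio near 0 lies above that of most genes. At least 4-fold higher were 5 genes, and at least 4-fold lower were 334. In each of the 4 parts separately, 65 genes were at least 2-fold higher and 517 at least 2-fold lower. The count of higher genes differed with the choice of squares: 61 genes were higher when the score left Fabp1 out, and 63 when the 5% of squares were taken within each ring, an alternative added after seeing the data. Scaling that set the median gene to a ratio of 1 gave 433 higher and 1338 lower genes. There is 1 section, so these counts describe it and no test was made.

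The genes that stood furthest above the remaining squares were transporters and enzymes of oxidation and conjugation. Slc5a4a, which belongs to the same transporter family as Slc5a1, was measured at 27.7, 32.5, 32.5 and 34.8 CPM in the 4 parts of the enterocyte squares, against 6.36, 4.78, 7.08 and 7.18 CPM in the remaining squares. The parts did not overlap, and the log2 ratio of 2.35 (2.10 to 2.59) was the highest of the 13152 genes with 200 or more counts. A count of Slc5a4a was found in 32.9% of enterocyte squares and 6.16% of the remaining squares. Its neighbour on chromosome 10, Slc5a4b, stood at 138 CPM in enterocyte squares and 38.1 CPM in the remaining squares (log2 ratio 1.85). The labels do not say how reads common to such close relatives were counted, which holds for the cytochrome P450, defensin and Reg families below too.

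Cyp2b10, a cytochrome P450 known in mouse liver as a target of the nuclear receptor CAR, was the most abundant of these genes. Its level was 417, 333, 585 and 491 CPM in the 4 parts of the enterocyte squares, against 118, 99, 106 and 126 CPM in the remaining squares. The gene lies at chr7:25897658-25926624 in the RefSeq annotation. Every enterocyte part stood above every remaining part, and the log2 ratio was 2.0 (1.94 to 2.07, parts 1.75 to 2.46). The median enterocyte square held 438 CPM and the median remaining square 72.0 CPM. Cyp2c66 had a log2 ratio of 2.15, with 60.1 CPM in enterocyte squares and 13.5 CPM in the remaining squares, and Cyp2c29 had 2.01, with 36.7 and 9.09 CPM in the same order. Cyp2c55 (1.73) and Cyp3a25 (1.55) followed, all of them enzymes that oxidise drugs, steroids or fatty acids.

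Slc27a2, a fatty acid transporter and acyl-CoA synthetase, stood at 166, 119, 188 and 212 CPM in the 4 parts of the enterocyte squares, against 48.5, 48.9, 50.8 and 62.8 CPM in the remaining squares. Rdh7, of the retinol dehydrogenase family, stood at 86.4, 109, 120 and 111 CPM, against 32.7, 32.6, 30.3 and 32.0 CPM in the remaining squares. In both genes the parts were separate, with log2 ratios of 1.74 and 1.75. The rest of the 20 were Otop3, a proton channel (2.17), Slc23a1, a vitamin C transporter (1.79), Mycbpap (1.78), Tmprss9, a membrane serine protease (1.66), Slc22a13b-ps, a pseudogene by its symbol (1.60), Acsm5, an acyl-CoA synthetase (1.59), Ugt1a6a, a glucuronosyltransferase (1.54), Dao, the D-amino acid oxidase (1.54), Hsd17b13, an enzyme of lipid droplets (1.52), Bbox1, which makes carnitine (1.48), and Nat8f5 (1.46). Several of these were sparse: Acsm5, Tmprss9 and Otop3 stood between 9.81 and 11.7 CPM in enterocyte squares.

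**Figure D2:**
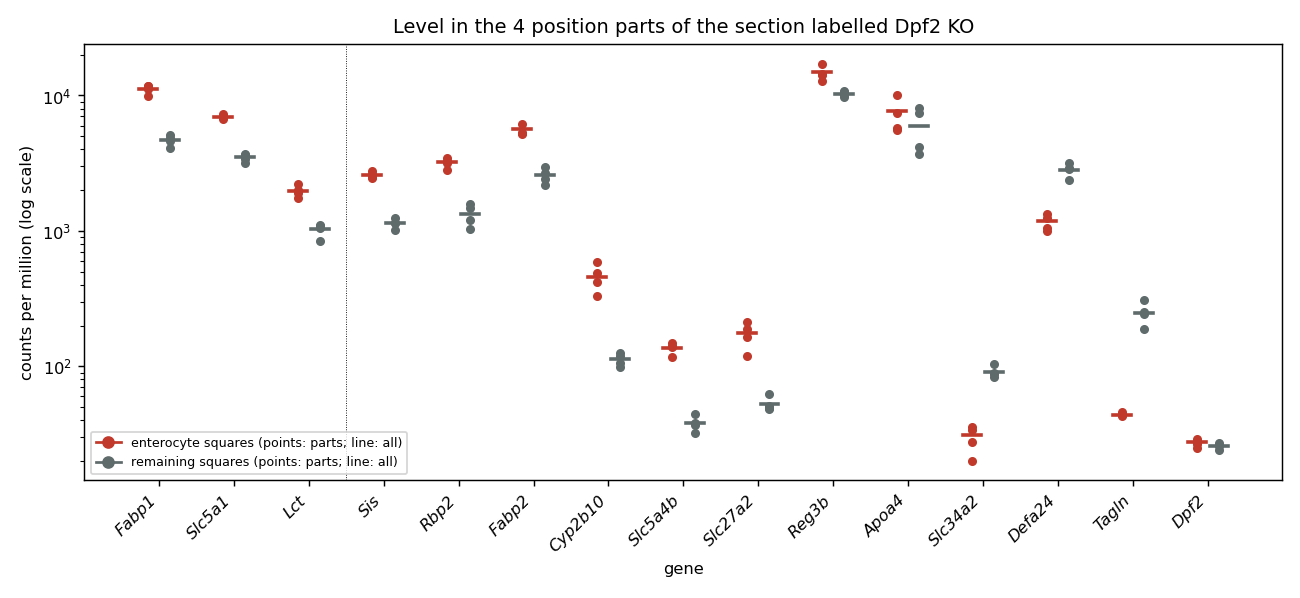
Level of 15 genes (counts per 1000000 counts, log scale) in enterocyte squares (red) and remaining squares (grey) of the section labelled Dpf2 KO. Points are the 4 position parts and lines the whole group; the 3 genes left of the dotted line belong to the rule. Cyp2b10, Slc5a4b and Slc27a2 are higher in every red part than in any grey part, Tagln and Defa24 are lower in every red part, and the parts of Apoa4 overlap.

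The label was checked against enterocyte genes that the rule had not used. Of a list of 30, 29 were measured with 20 or more counts; 6 stood at least 2-fold higher in enterocyte squares and 0 at least 2-fold lower. The median log2 ratio was 0.78, with medians of 0.57 to 0.94 in the 4 parts. The median over all genes was -0.32. Together the list took 5.22% of the counts in enterocyte squares and 3.29% in the remaining squares. Of the 30 genes, 26 are in other lists given below as well, and the list and the rule describe the same cell type, so this is no independent support.

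The clearest members of the list were digestive and lipid-binding genes. Sis, which encodes sucrase-isomaltase, stood at 2487, 2773, 2642 and 2456 CPM in the 4 parts of the enterocyte squares, against 1247, 1143, 1018 and 1136 CPM in the remaining squares, a log2 ratio of 1.17. Rbp2, the cellular retinol binding protein of enterocytes, stood at 3179, 2832, 3285 and 3462 CPM, against 1201, 1037, 1473 and 1569 CPM in the remaining squares, a log2 ratio of 1.28. The parts did not overlap in either gene. Fabp2 (1.13), Ace (1.16) and Slc2a2, the basolateral sugar transporter GLUT2 (1.14), were past 2-fold too. At the other end, Mep1a, a meprin metalloprotease, had a log2 ratio of 0.05, Slc9a3, a sodium-proton exchanger, -0.06, and Apob, the scaffold of chylomicrons, 0.11.

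By function, sugar and amino acid transport had the second-highest list median. Of its 19 measured genes, 8 reached a 2-fold higher level and 1 a 2-fold lower level. The median log2 ratio was 0.96 both with the 2 rule genes and without them, and the list summed to 13375 CPM in enterocyte squares and 7319 CPM in the remaining squares. Besides Slc5a4b, Slc6a20a, a transporter of proline and related imino acids, stood at 275 CPM in enterocyte squares and 102 CPM in the remaining squares (1.43), and Slc5a11, an inositol transporter, at 198 and 83.6 CPM in the same order (1.24). Slc43a1, an amino acid transporter, went the other way, at 1.86 CPM in enterocyte squares and 7.03 CPM in the remaining squares. Carbohydrate and peptide digestion had a median of 0.84 over 15 measured genes, 2 of them at least 2-fold higher and 0 lower, and the same median over the 12 that were not rule genes.

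The list of enzymes of xenobiotic metabolism stood highest. Of its 32 measured genes, 20 reached a 2-fold higher level and 0 a 2-fold lower one, where 1.08% and 17.5% of all genes did. The median log2 ratio was 1.16 (parts 1.01 to 1.20), and the lowest member, Gstm1, had 0.21. The list summed to 12442 CPM in enterocyte squares and 6834 CPM in the remaining squares. Among its abundant members, Ces2e, a carboxylesterase, stood at 1907 CPM in enterocyte squares and 1297 CPM in the remaining squares (0.56), and Cyp3a13 at 1497 and 1103 CPM in the same order (0.44). With a score that left Fabp1 out, the median of the list was 0.75.

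Genes of fat absorption and chylomicrons differed less than those of sugar uptake. The list had a median log2 ratio of 0.46 over 27 measured genes, with 2 at least 2-fold higher (Fabp1 and Fabp2) and 0 lower. Apoa4, an apolipoprotein of chylomicrons, stood at 5779, 5556, 7416 and 10004 CPM in the 4 parts of the enterocyte squares, against 4151, 3715, 7427 and 8053 CPM in the remaining squares. These parts overlapped, and the log2 ratio ran from about 0 in part 3 to 0.58, so Apoa4 followed the part of the section more than the group of squares. Acsl5, which activates long-chain fatty acids, had a log2 ratio of 0.97.

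Lists of energy metabolism were shifted slightly, and evenly only for oxidative phosphorylation. Of 33 measured nuclear genes of oxidative phosphorylation 0 passed 2-fold in either direction, and their median log2 ratio was 0.37, with quartiles of 0.28 and 0.52. Fatty acid oxidation had a median of 0.34 over 29 genes, with quartiles of 0.03 and 0.66. Of these, 2 were at least 2-fold higher and 1 at least 2-fold lower. The highest member of the fatty acid list, Cyp4a10, a fatty acid hydroxylase, rested on 24 counts in enterocyte squares and 65 in the remaining squares (2.39). The brush border and microvillus list had a median of 0.44, led by the scaffold protein gene Pdzk1 (0.96). Cytosolic ribosomal proteins lay lower, with a median of -0.78 over 18 measured genes, none past 2-fold, and a sum of 6193 CPM in enterocyte squares and 10793 CPM in the remaining squares.

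Retinoid genes stood out within a list that did not. The vitamin A and sterol list had a median log2 ratio of -0.14 over 20 genes, above 0 with median-of-ratios scaling, but Rdh7, Aldh1a1 (1.38) and Rbp2 were at least 2-fold higher, and its sum had a log2 ratio of 0.90. Aldh1a1, a retinaldehyde dehydrogenase, stood at 372 CPM in enterocyte squares and 143 CPM in the remaining squares. Sterol synthesis genes lay lower, with -1.0 for Sqle and -0.87 for Srebf2.

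Among enterocyte transcription factors the ratios were small: the median was 0.14 over 24 measured genes, with 1 past 2-fold. That gene was Pdx1, a factor of the proximal gut, with 27 counts (4.57 CPM) in enterocyte squares and 2.22 CPM in the remaining squares. Creb3l3 (0.42), Maf (0.72) and Ppargc1a, a coactivator of mitochondrial genes (0.84), were above 0, and Elf3 (-0.44) and Prdm1, a repressor of adult enterocyte genes in the fetal mouse gut (-0.74), below. The BAF complex had a median of -0.39 over 28 genes, close to the median of all genes, with Smarca4 at -0.48 and Arid1a at -0.22. Dpf2 stood at 25.1, 27.5, 26.9 and 29.1 CPM in the 4 parts of the enterocyte squares, against 24.1, 26.3, 25.6 and 27.2 CPM in the remaining squares, and its interval of -0.15 to 0.32 around 0.09 spans 0. Dpf3 had -0.01, and Dpf1 had 1 count in enterocyte squares and 46 in the remaining squares.

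**Figure D3:**
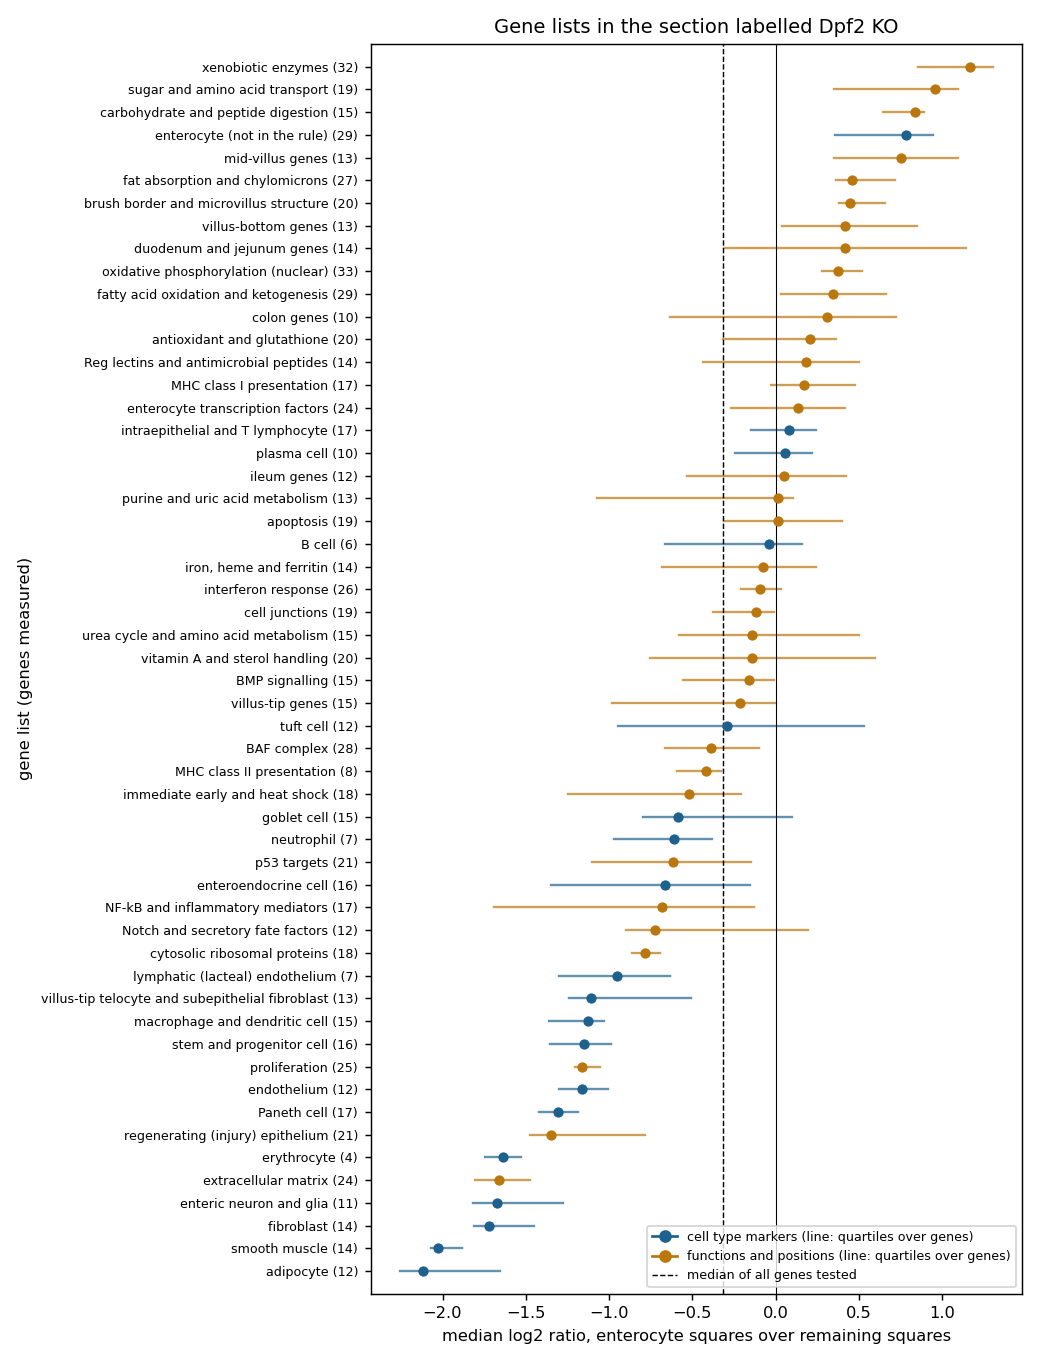
Median log2 ratio of enterocyte squares over remaining squares for 54 gene lists in the section labelled Dpf2 KO, with the number of genes measured in brackets. Points are medians, lines run from the lower to the upper quartile over the genes of a list, and the dashed line is the median of all genes tested. The mid-villus, transport, digestion, fat absorption and duodenum lists hold rule genes; xenobiotic enzymes stand highest (1.16) and adipocyte markers lowest (-2.12).

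Markers of most other cell types were lower in the enterocyte squares than the median gene. The 14 smooth muscle markers had a median log2 ratio of -2.03 and summed to 760 CPM in enterocyte squares and 2713 CPM in the remaining squares. Tagln, an actin-binding protein of smooth muscle, stood at 43.2, 44.5, 45.9 and 43.4 CPM in the 4 parts of the enterocyte squares, against 189, 311, 242 and 251 CPM in the remaining squares, a log2 ratio of -2.49. Its level in enterocyte squares varied by under 3 CPM between parts while the surrounding level varied widely. The medians were -1.72 for 14 fibroblast markers, -1.66 for 24 extracellular matrix genes, -2.12 for 12 adipocyte markers and -1.67 for 11 markers of enteric neurons and glia, and 0 genes of these 5 lists were at least 2-fold higher.

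Crypt genes were lower too. Of 17 Paneth cell markers 16 were at least 2-fold lower, with a median of -1.31 and a sum of 3091 CPM in enterocyte squares and 7216 CPM in the remaining squares. Defa24, an alpha-defensin, stood at 1055, 993, 1238 and 1323 CPM in the 4 parts of the enterocyte squares, against 2392, 3164, 2908 and 2863 CPM in the remaining squares. This abundant defensin was thus lower but not near 0 in the enterocyte squares, as were Defa17 (522 CPM) and Defa30 (431 CPM). Other defensins were sparse there: Defa22 stood at 12.2 CPM, Defa20 at 12.5 CPM and Defa21 at 4.91 CPM. Proliferation genes had a median of -1.16, with 21 of 25 at least 2-fold lower, and stem and progenitor markers -1.15, with 12 of 16. Olfm4, a progenitor marker, stood at 153 CPM in enterocyte squares and 338 CPM in the remaining squares, while Lgr5, the marker of crypt base stem cells, had a log2 ratio of -0.26.

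Among cells that live within or beneath the villus epithelium, lymphocytes and plasma cells gave ratios near 0, and the others named here had lower medians. Intraepithelial and T lymphocyte markers had a median log2 ratio of 0.08 over 17 genes and plasma cell genes 0.06 over 10, none past 2-fold. Neither sign was stable: the plasma cell median lay below 0 in 10 of 24 alternatives and the lymphocyte median in 3. With a score that left Fabp1 out, the plasma cell median was -0.69. Goblet cell markers had a median of -0.59, but their sum was 7082 CPM in enterocyte squares and 7072 CPM in the remaining squares, because abundant members such as Fcgbp (0.16) and Zg16 (0.07) lay above 0. Enteroendocrine cell markers had a median of -0.67, macrophage and dendritic cell markers -1.13, endothelial markers -1.16, lacteal endothelial markers -0.95, and markers of villus-tip telocytes and subepithelial fibroblasts -1.11.

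The 15 genes named as lowest were mostly sparse, and several rested on 3 counts or fewer in the enterocyte squares. Chrm2, the muscarinic receptor of smooth muscle, had 9 counts in enterocyte squares and 1061 in the remaining squares, or 1.52 and 12.7 CPM, a log2 ratio of -3.06 (-4.19 to -2.13). Serpinf1, which encodes a secreted protein of stromal cells and adipocytes, had 2 counts against 357, and its interval of -6.71 to -1.79 is wide. Cyp2e1 stood at 7.44 CPM in enterocyte squares, while its level in the remaining squares was 21.0, 147, 10.6 and 41.8 CPM in the 4 parts. Where a part of the enterocyte squares held no count of a gene, the floor of 3 counts was used to apply the naming rule. Kcne4, Ttc21b, Nap1l5, Mmp17, Colec10, Kctd17, Tbx2, Ly86, Kcnn3, Cavin2 and Dgke were others named by the rule, with log2 ratios between -3.06 and -2.66.

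The position of the enterocyte squares along the crypt-villus axis was read from genes that mark the tip, the middle and the bottom of the villus in mouse. Villus-bottom genes had a median log2 ratio of 0.42 over 13 genes, and villus-tip genes -0.21 over 15. Mid-villus genes had the highest median, 0.75 over 13 genes, all above 0, but 5 of these are rule genes. The 8 mid-villus genes outside the rule had a median of 0.52, also above that of the villus-bottom genes. Reg3b, an antibacterial lectin of the villus bottom, stood at 14805 CPM in enterocyte squares and 10334 CPM in the remaining squares (0.52), and its relatives Reg1 (1.18) and Reg3a (1.39) were past 2-fold. The gasdermin genes Gsdmc2 (-1.08) and Gsdmc3 (-1.20), on the same list, were at least 2-fold lower. The villus-bottom median fell to 0.02 with a score that left Fabp1 out. The tip genes Ada, an adenosine deaminase (-1.07), and Slc28a2, a purine nucleoside transporter (-1.61), were at least 2-fold lower, while Apoa4 and Creb3l3 lay above 0, and the sum of the tip list had a log2 ratio of 0.08 where its median was below 0 and turned to 0.10 with median-of-ratios scaling.

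Tip genes peaked at middle scores and not in the enterocyte squares. In bands of the score from the lower 50% of the squares, through the 50 to 80% and the 80 to 95% band, to the enterocyte squares, the tip list summed to 7507, 15048, 14265 and 11782 CPM. Slc34a2, a phosphate transporter of the lower small intestine and one of the 12 ileum genes, stood at 59.9, 140, 90.6 and 31.0 CPM in the same bands. The enterocyte list climbed through every band, at 22174, 40957, 48356 and 52165 CPM, and so did the villus-bottom list, at 14894, 18597, 20289 and 23377 CPM. Cyp2b10 more than doubled at the last step, with 78.4, 109, 214 and 453 CPM, whereas Slc15a1 levelled off at 873, 1692, 1930 and 1912 CPM. The bands are cut from the rule's score, so the values of Slc15a1 are a description of the choice.

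Levels changed within 1 or 2 squares of the enterocyte squares. At distances of 0, 1, 2, 3 to 4, 5 to 8 and over 8 squares from the nearest enterocyte square, Cyp2b10 stood at 453, 251, 155, 108, 80.3 and 61.2 CPM. The enterocyte list summed to 52165, 41726, 33369, 26465, 32428 and 33931 CPM at the same distances, so it had a trough at 3 to 4 squares. Paneth markers ran the other way, with 3091 CPM in the enterocyte squares and a peak of 9581 CPM at 3 to 4 squares.

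The 2 sides of the arcs differed. With distance counted as negative towards the centre of the section and positive away from it, tip genes peaked on the centre side, at 15757 CPM at -2, and stood at 11782 CPM at 0 and 8420 CPM at 1. Villus-bottom genes peaked in the enterocyte squares themselves, at 23377 CPM, with 21679 CPM at 1 and 17230 CPM at -1. Paneth markers peaked at 13341 CPM at 3, smooth muscle markers at 6799 CPM at 5 and adipocyte markers at 4769 CPM at 6, all on the outer side. The enterocyte squares thus lay between a band high in tip genes nearer the centre and, further out, bands high in Paneth, muscle and fat genes in that order. Proliferation genes did not keep to this order of crypt before muscle and fat. Their peak was 1648 CPM at 8, a distance that held 102 squares. Proliferation, Paneth and smooth muscle genes were at their lowest of all distances in the enterocyte squares.

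**Figure D4:**
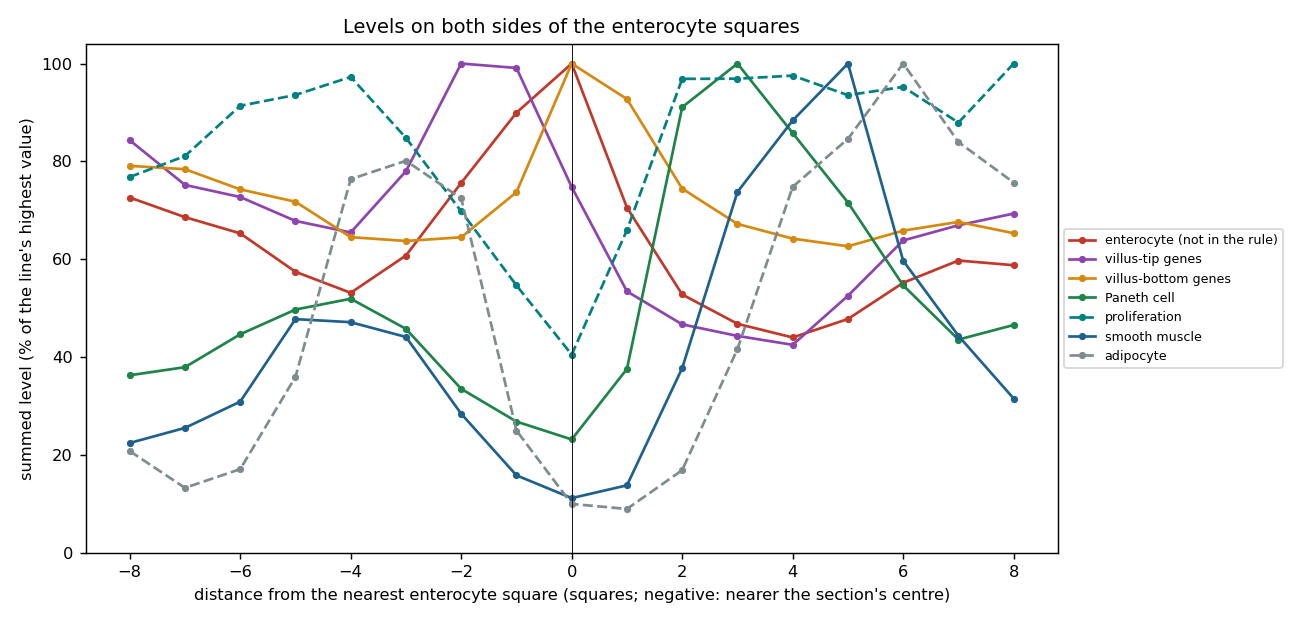
Summed level of 7 gene lists (each line as % of its own highest value) against the distance in squares from the nearest enterocyte square, negative towards the centre of the section, in the section labelled Dpf2 KO. Enterocyte and villus-bottom genes are highest at 0, villus-tip genes at -2, Paneth markers at 3, smooth muscle markers at 5 and adipocyte markers at 6. Proliferation genes are highest at 8.

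The enterocyte squares were not uniform along this axis. They were ranked by the share of tip genes minus that of villus-bottom genes and split into 3 groups of 138 squares. Apoa4, which is itself a tip gene of this ranking, stood at 11597, 6507 and 5315 CPM from the tip side through the middle to the bottom side, and Reg3b, a bottom gene, at 11054, 14458 and 18500 CPM. Among genes that neither the ranking nor the rule used, Sis stood at 2202, 2598 and 2866 CPM from the tip side to the bottom side, and Cyp2b10 at 505, 483 and 380 CPM. Ribosomal proteins summed to 5255, 6106 and 7117 CPM, and oxidative phosphorylation genes to 16703, 18478 and 19889 CPM, in the same order. The sum of the xenobiotic list did not follow the axis, at 12669, 12303 and 12363 CPM, but single members did, in opposite directions. Cyp3a13 stood at 1922, 1374 and 1225 CPM from the tip side to the bottom side, and Gstm1 at 56.2, 84.8 and 100 CPM.

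Of the rule's genes, Fabp1 stood at 9045, 10996 and 13443 CPM from the tip side to the bottom side, and Lct at 2270, 2058 and 1606 CPM, which is the opposite order. The next comparison covers genes that the ranking did not use, with sparse genes left out. Among them the tip-side group was furthest above the bottom-side group for Tmprss15, the enteropeptidase (log2 ratio 1.79), Pmp22 (1.5) and Cubn, a receptor of vitamin B12 uptake (1.45). It was furthest below for the glutathione transferases Gsta1 (-1.59), Gstm3 (-1.54) and Gsta4 (-1.21). Of these 6 genes, those that no list had put forward were chosen after their values were seen.

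Patches of touching squares differed among themselves in Apoa4, which the rule did not use. In the 6 largest patches, of 69, 49, 28, 25, 13 and 12 squares, Fabp1 stood at 12438, 9502, 10735, 9686, 11027 and 9572 CPM and Apoa4 at 10751, 7836, 6003, 5024, 5849 and 5374 CPM. Lct was highest in patches where Fabp1 was low, at 1830, 2341, 1879, 2362, 1739 and 2406 CPM. Both are rule genes, and every square had to pass a threshold on the rule's sum. Their spread over patches and their opposite order are therefore shaped by the choice and are a description only. The largest patch also had the highest sum of the enterocyte list, 59239 CPM, and the others lay between 46695 and 51332 CPM. Smooth muscle markers summed to between 630 and 1089 CPM over the 6 patches, under the 2713 CPM of the remaining squares in each.

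The ring of the section moved with several of these genes. Over all squares, from the innermost to the outermost ring, Fabp1 stood at 3680, 4757, 4887 and 6833 CPM, Cyp2b10 at 59.1, 136, 115 and 217 CPM and Slc34a2 at 151, 79.6, 87.5 and 37.6 CPM. Slc15a1 ran the other way from Fabp1, with 1502, 1445, 1378 and 1176 CPM. Within the second ring alone 99 of 8970 genes tested stood 2-fold or more above the remaining squares and 1216 below. Within the outermost ring alone it was 55 and 1265 of 9762 genes. Over the whole section it was 142 and 2301 of 13152. Fewer genes were tested within a ring, so the counts have different bases. The share of the ring in the ratios was not tested beyond these values, and the rings were added after seeing the data.

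Squares ranked by tip genes and squares ranked by villus-bottom genes were the sets most like the enterocyte squares. Of 414 squares in each set, 5 (1.21% of each) were shared with the tip squares and 95 (22.9% of each) with the bottom squares. The enterocyte list took 5.22% of the counts in enterocyte squares, 7.13% in tip squares and 4.37% in bottom squares. The tip squares were ranked on genes of which some, such as Apoa4, are also on the enterocyte list. The 6 rule genes took 2.74% of the counts in enterocyte squares, 1.56% in tip squares and 2.04% in bottom squares. Squares ranked by smooth muscle, Paneth cell, adipocyte and proliferation genes shared 0 squares with them, yet the rule genes still took 0.776%, 0.922%, 0.983% and 0.729% there, at median depths of 12385, 10056.5, 12078 and 8932.5 counts. Muscle and fat cells are not known for these genes. Of the smooth muscle squares 4.83% and of the adipocyte squares 20.3% lay within 2 squares of an enterocyte square, and the source of the rule genes' counts in them was not tested.

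Against the tip squares, with shared squares left out, 256 of 5847 genes (4.38%) were at least 2-fold higher in enterocyte squares and 260 (4.45%) lower. The genes given here and for the bottom squares had the most extreme ratios among those used in neither choice, and were picked after the values were seen. Slc5a4b stood at 139 CPM in enterocyte squares and 20.7 CPM in tip squares, Rdh7 at 109 and 16.3 CPM, and Gsta1, a glutathione transferase, at 474 and 95.1 CPM, in the same order. Below the tip squares lay Slc23a4, a nucleobase transporter, at 12.6 CPM in enterocyte squares and 246 CPM in tip squares, Clca4a at 314 and 4690 CPM, and Slc34a2 at 28.9 and 284 CPM. Cldn4, a tight junction claudin, and Atf3, a stress-induced factor, had log2 ratios of -3.48 and -3.09.

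Against the bottom squares fewer genes differed: 31 of 5553 (0.558%) were at least 2-fold higher in enterocyte squares and 37 (0.666%) lower. The P450 genes Cyp2c66, with 62.9 CPM in enterocyte squares and 9.47 CPM in bottom squares, and Cyp2b10, with 483 and 91.8 CPM, led the higher ones, followed by Cyp3a11 (log2 ratio 1.87) and the water channel gene Aqp1 (1.43). Among the lower ones, Ly6d stood at 7.14 CPM in enterocyte squares and 41.0 CPM in bottom squares, Duox2, an oxidase of the mucosal surface, had a log2 ratio of -1.99 and Nts, the neurotensin gene, -1.94.

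The score was set against the shares of 12 lists across squares. The Pearson correlation of the score with the share of the xenobiotic list was 0.36 over the 414 enterocyte squares and 0.85 over all 8285 squares, with 0.28 and 0.70 for the enterocyte list, 0.22 and 0.48 for villus-bottom genes and 0.05 and 0.27 for tip genes, in the same order. The Spearman coefficient was 0.29 and 0.86 for the xenobiotic list and 0.34 and 0.83 for the enterocyte list, so within the enterocyte squares the order of these lists turned with the measure. All are shares of the same square's counts, from 1 library, and neighbouring squares are alike, so the coefficients describe this section only. Of the remaining squares, 2.40% had more of the xenobiotic list than the median enterocyte square, 13.6% more of the enterocyte list and 35.8% more of the tip list.

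The same rule in the section labelled WT chose squares of another kind. That section holds 39824941 counts in 50970 barcodes and 4917 kept squares, of which the rule took 245. Their scores ran from 0.0451% to 0.635%, 2822 squares of the section had a score of 0, and 0 squares reached the lowest score of an enterocyte square of the section labelled knockout. The 12 WT squares with the highest scores reached the lowest score of any square in the section labelled knockout, 0.249%. Fabp1 had 66447 counts, or 11242 CPM, in the knockout-labelled enterocyte squares and 305 counts, or 177 CPM, in the WT-labelled chosen squares, and Lct had 11612 counts (1965 CPM) and 17 counts (9.89 CPM) in the same order. With 1 section for each genotype, section and genotype cannot be told apart, and the stretch of gut sampled in each is not given.

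Genes outside the rule differed between these squares as well. Of 5334 genes that reached 200 counts over both, 1236 (23.2%) stood at least 2-fold higher in the knockout-labelled enterocyte squares and 1141 (21.4%) at least 2-fold lower. The enterocyte list summed to 52164 CPM in the section labelled knockout and 6447 CPM in the section labelled WT, with all 29 measured genes higher and a median log2 ratio of 3.61. Xenobiotic enzymes summed to 12442 CPM in the section labelled knockout and 856 CPM in the section labelled WT, and Cyp2b10 had 2677 counts (453 CPM) and 1 count (0.582 CPM), a log2 ratio of 9.60 with an interval of 7.13 to 14.91. Several lists of other cells and states stood higher in the WT-labelled chosen squares than in the knockout-labelled ones. Paneth markers summed to 3091 CPM in the section labelled knockout and 63400 CPM in the section labelled WT. Regenerating epithelium genes summed to 2264 and 11403 CPM, and proliferation genes to 667 and 2845 CPM, in the same order. The remaining squares of the section labelled WT held 122951 CPM of Paneth markers, 10557 CPM of regenerating epithelium genes and 2616 CPM of proliferation genes. Their part in the differences of enterocyte genes was not tested. Smooth muscle markers were alike, at 760 CPM in the section labelled knockout and 751 CPM in the section labelled WT. Some lists went the other way: adipocyte markers summed to 476 CPM in the section labelled knockout and 162 CPM in the section labelled WT. Intraepithelial and T lymphocyte markers summed to 109 and 64.6 CPM in the same order.

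Although far lower in level, enterocyte genes were concentrated in the WT-labelled chosen squares too. The enterocyte list summed to 6447 CPM in the 245 chosen squares and 749 CPM in the remaining squares of that section, with a median log2 ratio of chosen over remaining squares of 0.78 in the section labelled knockout and 3.11 in the section labelled WT. Apoa4 stood at 1325 CPM in the WT-labelled chosen squares and 35.9 CPM in that section's remaining squares. Cyp2b10 and Slc5a4b, among the genes that marked the enterocyte squares of the section labelled knockout, had log2 ratios of 0.07 and -0.24 there, on 1 and 9 counts in the chosen squares.

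**Figure D5:**
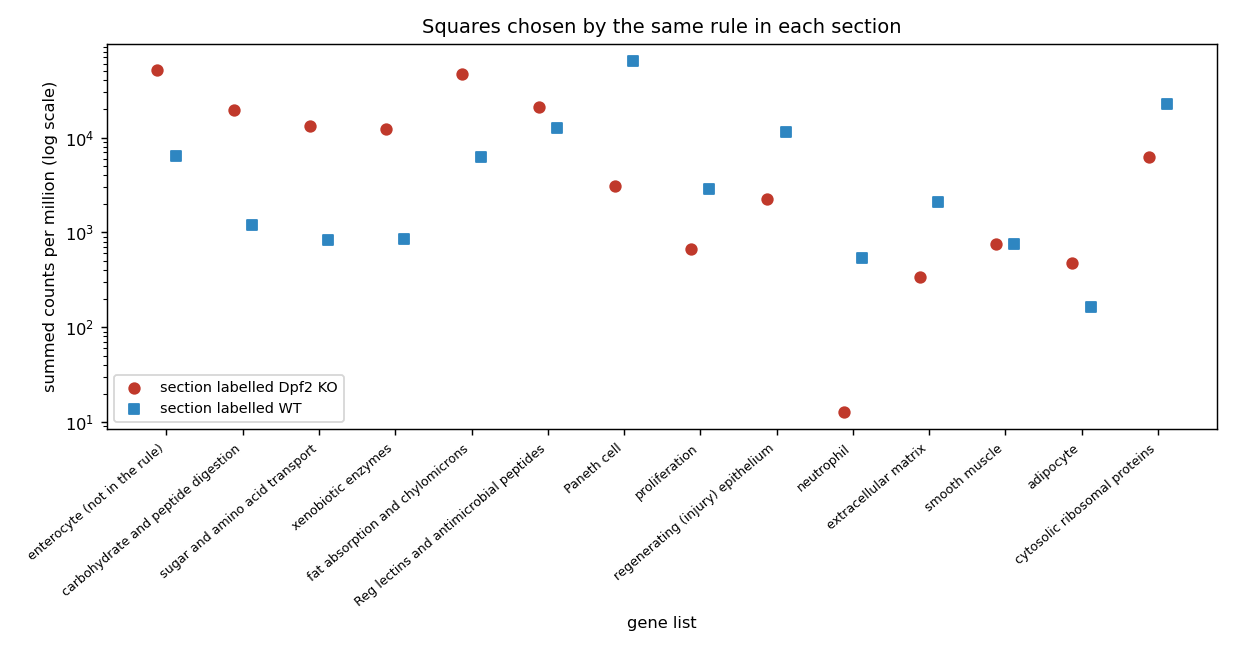
Summed level (counts per 1000000 counts, log scale) of 14 gene lists in the squares chosen by the same rule, for the section labelled Dpf2 KO (414 squares, red circles) and the section labelled WT (245 squares, blue squares). Enterocyte, digestion, transport and xenobiotic lists are higher in the section labelled Dpf2 KO, Paneth, neutrophil and regenerating lists are higher in the section labelled WT, and smooth muscle markers lie at about the same level.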

How the data were processed

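The authors deposited whole-number counts per gene and capture barcode for each section, with barcode positions. Per the labels, tissue was fresh frozen, cut at 10 µm and placed on a barcoded array, and barcodes under tissue were kept. The submitters' processing notes name build GRCm38. The aligner, the treatment of multi-mapping reads and whether reads were collapsed by molecular identifier are not stated in the labels. The 54752 features carry 54658 symbols, and repeated symbols were added together. The 2041 listed genes on chromosome X and those on Y and the mitochondrial genome hold 0 counts, so they have no value here. Barcode names shared by the sections (45557) lie at the same positions in both and are addresses on the array, not shared cells.

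Counts were summed over squares with a side of 10 position units, squares with under 1000 counts were dropped (61 of 8346 in the section labelled knockout), and levels are counts per 1000000. CPM have exact Poisson and ratios exact conditional binomial (Clopper-Pearson) intervals at 95%, which cover counting error only. A group at 0 was set to a floor of 3 counts. With 1 section for each genotype no test was made, and squares, which share tissue and library, are not replicates. Ratios are given for genes with 200 or more counts, and members of lists for 20 or more. The members, the 54 lists (848 genes) and the alternatives were chosen with earlier results of these data known. Genes named are the 6 of the rule, the 20 highest and 15 lowest past 2-fold in each of the 4 parts of the section (no predicted, ribosomal, immunoglobulin or haemoglobin genes), the 10 most abundant, up to 3 highest, 3 lowest and 3 most abundant of each list, and Dpf2, Dpf1, Dpf3, Smarca4 and Arid1a; others are said to have been chosen after their values were seen. Alternatives varied the share of squares, their size and depth, the score, the scaling, the squares compared with, the gene filter and the part of the section. On counts simulated from the section's levels with counting error only, all 200 genes given a 4-fold change were recovered. Smaller changes, variation between squares and the choice by score were not simulated. Python 3.11.15, numpy 2.4.6, scipy 1.17.1, pandas 2.3.3 and matplotlib 3.10.9 were used. A gene of the 15 lowest is not reported here.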

Additional observations from a re-analysis of the deposited data

Results flagged for a closer look

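The median log2 ratio of the chosen over the remaining squares had opposite signs in the 2 sections in 13 of 54 gene lists, and 4 of these were past 2-fold in 1 section. The median log2 ratio of adipocyte markers was -2.12 in the section labelled knockout (12 measured genes) and 0.77 in the section labelled WT (6 measured genes). In the section labelled WT their sum hardly differed, at 162 CPM in chosen and 152 CPM in remaining squares. The log2 ratio of that sum was 0.09, with an interval of -0.09 to 0.26. For erythrocyte genes the median was -1.64 in the section labelled knockout and 0.61 in the section labelled WT, over 4 genes in each. For villus-tip genes the median was -0.21 in the section labelled knockout and 1.78 in the section labelled WT. The sums of the tip list had the same sign, with log2 ratios of 0.08 and 1.55 in the same order. For proliferation genes the median was -1.16 in the section labelled knockout and 0.06 in the section labelled WT. Each section is a single sample, and the difference between them was not tested. The chosen squares of the section labelled WT held 1718993 counts and had a pooled score of 0.104%, against 5910669 counts and 2.74% in the section labelled knockout.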

How the results depend on the processing

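No paired analysis was possible because each genotype has 1 section and no test was made. The median log2 ratio of the enterocyte genes outside the rule stayed above 0 under the 24 alternatives, from 0.41 to 1.10, and was highest with median-of-ratios scaling (1.10). That scaling moved the median of all genes from -0.32 to about 0, and with it 433 genes stood 2-fold or more above the remaining squares and 1338 below, against 142 and 2301, so the share of higher genes among those past 2-fold was 24.4% where it was 5.81%. The count of higher genes was 61 with a score without Fabp1, 77 with the rule genes weighed alike, and 63 with the squares taken within rings, the last an alternative added after seeing the data. Against remaining squares in the upper 50% of the score, 48 of 10783 genes tested were higher and 177 lower (share of higher genes 21.3%). With genes of 50 or more counts 219 were higher and 3543 lower, and with 1000 or more counts 88 and 822; here fewer or more genes were tested. Within the second ring 1216 of 8970 genes tested were lower. Within the outermost ring 55 of 9762 were higher and 1265 lower. The rings were also added after seeing the data, and they use fewer squares and test fewer genes. The causes of these shifts in the counts were not tested. Leaving out 1 part of the section gave 135 to 148 higher genes, 1854 to 2323 lower genes and enterocyte medians of 0.74 to 0.82. Of 165 named genes past 2-fold, 0 changed sign in 3757 values, with values of 3 or fewer counts in a group left out. Part of this outcome was fixed in advance. Alternatives that changed only the gene filter leave each gene's ratio and each list's median as they were. The 165 also include rule genes, and genes named for passing 2-fold in each part, which leaving out 1 part could hardly reverse. Medians of lists near 0 were not stable in sign: villus-tip genes had 0.10 with median-of-ratios scaling. With a score without Fabp1, Reg lectins had -0.32 and plasma cell genes -0.69. Depth limits the sparse genes, since 3 counts in the enterocyte squares are worth 0.508 CPM.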

Other observations

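The most abundant features of the enterocyte squares were not enterocyte genes. Gm28437, a predicted gene, stood at 28645 CPM in enterocyte squares and 31182 CPM in the remaining squares, and Myo3a at 17694 CPM in enterocyte squares and 18767 CPM in the remaining squares. Nkain2 stood at 11149 CPM in enterocyte squares and 13150 CPM in the remaining squares. What reads were counted in these 3 features was not tested.

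Guca2b, the uroguanylin gene, stood at 3442 CPM in enterocyte squares and 1804 CPM in the remaining squares, a log2 ratio of 0.93. Leap2, a liver- and gut-derived peptide hormone, stood at 751 CPM in enterocyte squares and 319 CPM in the remaining squares (1.24). Of duodenum and jejunum genes, the 12 measured that were not rule genes had a median of 0.06 with quartiles of -0.43 and 1.02, 3 of them at least 2-fold higher and 1 at least 2-fold lower. The 12 ileum genes had a median of 0.05, with 0 at least 2-fold higher and 2 at least 2-fold lower. The sums had log2 ratios of 0.86 for the duodenum and jejunum genes and 0.61 for the ileum genes. Within the ileum list, Slc51a, which exports bile acids, had 0.44 while Slc34a2 had -1.55.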
